A study of Mus musculus with 4 samples.

Results

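Contact decay beyond 1 Mb was measured as the number of Hi-C read pairs whose ends lie on the same chromosome (cis pairs) at each separation from 1 Mb upwards. The distance classes were those with a lower bound of at least 990000 bp, with the 4 combinations of read strand summed and the open last class included. This took 13 of the 38 distance classes of the table, and 10 of the 13 held read pairs. The other 3 classes begin at 316, 562 and 1000 Mb, beyond the longest mm9 chromosome (197195432 bp), and held 0 pairs in each of the 4 libraries. The 178 to 316 Mb class is therefore the last class that the mouse genome can fill.

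In situ Hi-C crosslinks chromatin, cuts it inside the nucleus (here with DpnII), joins ends that lie close together and sequences both ends of each joined fragment. All 4 libraries were made from E14, an embryonic stem cell line from a male mouse. Cells of 2 biological replicates were kept in foetal calf serum (serum libraries) and cells of 2 others in 2i. LIF, a cytokine that sustains self-renewal, was in both media. In 2i, serum was replaced by defined N2 and B27 supplements with the MEK inhibitor PD0325901 (1 μM) and the GSK3 inhibitor CHIR99021 (3 μM), and cells were converted for 14 days. The comparison asks whether the folding of chromosomes at long range differs between these culture conditions.

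A chromosome in interphase is a long polymer that keeps mostly to its own territory, so contacts between its positions become rarer as their separation grows. At separations of many Mb, contacts depend on how active and inactive compartments group together and on how whole chromosome arms are folded. Contacts between different chromosomes (trans pairs) give the level that a cis contact can be set against when its ends lie very far apart.

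For orientation, the class from 1 to 1.78 Mb spans the spacing of known polycomb target genes on chromosome 5. The start of Shh, a secreted morphogen (position 28793641 of mm9, minus strand), lies 1.01 Mb from that of Mnx1, a homeobox factor of motor neurons (29805059, minus strand). En2, a homeobox gene of the midbrain and hindbrain (28492236, plus strand), starts 1.31 Mb from Mnx1. The starts of En2 and Shh are 0.301 Mb apart, which falls in a class under 1 Mb. The counts carry no position within a chromosome, so contacts between these loci were not measured here.

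Replicates 1 and 2 of serum held 31822020 and 80796046 cis pairs at 1 Mb or more, and those of 2i held 85215360 and 57934130. Set against cis pairs of at least 1 kb, they made up 33.6% and 32.3% in serum, and 37.2% and 34.9% in 2i. Each 2i library had a higher share than each serum library by this measure. As a share of all cis pairs they were 30.0% and 27.6% for serum against 24.2% and 27.7% for 2i, and as a share of all unique pairs 25.8% and 23.7% against 19.5% and 24.0%. Over both of these totals the groups overlapped, with a lower mean in 2i.

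Pairs under 1 kb apart, a range that holds unligated fragments, separated the groups. They made up 10.7% and 14.6% of cis pairs for serum against 35.1% and 20.6% for 2i. When the classes under 1 kb were included, edgeR called 4 of them higher in 2i. The shares of duplicates and of trans pairs did not separate the groups. Duplicates took 55.4% and 19.3% of the mapped pairs of serum replicates 1 and 2, and 16.9% and 23.2% of those of 2i. Trans pairs were 19.1% of unique pairs in 2i replicate 1, 13.5% in 2i replicate 2 and 13.9% in both serum libraries, so that 2i had both the highest and the lowest value. The part of depth, duplicates and pairs under 1 kb in the results was not tested.

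The separations that took a larger share of contacts in 2i were the longest ones. Of all cis pairs at 1 Mb or more, 17.1% and 17.8% were at least 31.6 Mb apart in replicates 1 and 2 of serum, compared with 28.1% and 25.4% in those of 2i. The group means were 17.4% ± 0.503 (SD, n = 2) for serum and 26.8% ± 1.93 (SD, n = 2) for 2i, a difference of 9.33 percentage points that exceeded the gap of 2.73 points between the 2i replicates. The cut at 31.6 Mb lies where the direction of the class shares changes, so of all cuts between classes it gives the largest difference. At 10 Mb or more, the shares were 47.1% and 48.2% for serum against 54.5% and 52.1% for 2i. At 100 Mb or more, the shares were 0.538% and 0.616% in libraries from serum, and 2.11% and 1.61% in those from 2i. Here the mean of 2i was 3.23 times that of serum. In an exact two-sided permutation test, 2 libraries against 2 give no p below 0.333, and each of these comparisons gave that value.

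Class by class, the shares of cis pairs at 1 Mb or more lay higher in both 2i libraries than in both serum libraries in the 4 classes from 31.6 Mb upwards, and lower in the 6 classes below. Shares sum to 100% within a library, so a gain in some classes lowers the others. Only these 10 classes have such a share, so the background is the same count, 40% higher and 60% lower.

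The class from 31.6 to 56.2 Mb is where the direction changes. It held 12.5% and 12.9% of the pairs in serum replicates 1 and 2, and 15.6% and 14.8% in 2i replicates 1 and 2. The mean of 2i was 1.20 times that of serum. As a share of all unique pairs the class held 3.22% and 3.05% for serum against 3.05% and 3.54% for 2i, where the groups overlapped (exact permutation test, p = 1).

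Between 56.2 and 100 Mb the groups were much further apart. The shares were 4.04% and 4.28% in replicates 1 and 2 of serum, against 10.4% and 8.99% in those of 2i. Any 2i library exceeded any serum library by 2.10 to 2.58 times, and in percentage points this class showed the largest difference of the 10, 5.55.

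The 100 to 178 Mb class, which 16 chromosomes are long enough to fill, held 0.536% and 0.614% of the pairs from serum, against 2.10% and 1.61% of those from 2i. The ratio of a 2i to a serum library ran from 2.62 to 3.92. The 2i replicates differed from each other more than the serum replicates did, by 0.493 against 0.0781 percentage points, and both 2i values were still above both serum values.

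In the 178 to 316 Mb class, pairs join the opposite ends of chromosome 1 and, to a small extent, of chromosome 2. Chromosome 1 supplies 96.1% of the position pairs of that class. It held 566 and 1752 pairs in replicates 1 and 2 of serum, against 6939 and 3051 in those of 2i. Per 1000000 cis pairs of chromosomes 1 and 2 together, that came to 34.2, 39.2, 129 and 96.3 in the same order. Both 2i libraries were thus above both serum libraries by this measure as well. These 2 chromosomes held 15.6% and 15.2% of all cis pairs in the serum libraries and 15.2% in each 2i library.

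The counts were tested with edgeR's quasi-likelihood test across all 22 filled classes of 1 kb or more, scaled to the cis pairs at 1 kb or more. At a Benjamini-Hochberg adjusted p under 0.05, 4 classes were higher in 2i, namely the 4 from 31.6 Mb upwards. They are 18.2% of the classes tested. The log2 fold change in edgeR was 0.39 for 31.6 to 56.2 Mb (adjusted p = 0.0379), 1.36 for 56.2 to 100 Mb (adjusted p = 0.00766), 1.83 for 100 to 178 Mb (adjusted p = 0.00766) and 1.90 for 178 to 316 Mb (adjusted p = 0.0206). In each of these classes the share of cis pairs at 1 kb or more was higher in 2 of 2 libraries of 2i than in both of serum. With the replicate number as a block, edgeR called 0 classes higher. The log2 fold changes of these 4 classes were then 0.39, 1.35, 1.81 and 1.85. With serum replicate 1 or serum replicate 2 left out, edgeR called 0 classes higher, where the lone serum library is assumed to vary like the 2i libraries. At an unadjusted p under 0.05 it then called 3 in each case. The log2 fold changes of the 4 classes, in order of separation, were 0.40, 1.34, 1.76 and 1.80 without serum replicate 1 and 0.38, 1.37, 1.90 and 2.03 without serum replicate 2. They were 0.30, 1.19, 1.57 and 1.49 without 2i replicate 1, and 0.47, 1.50, 2.05 and 2.21 without 2i replicate 2. The class from 31.6 to 56.2 Mb also missed the threshold in edgeR with TMM factors, at a log2 fold change of 0.41 (adjusted p = 0.0537), and with classes under 1 kb included, where the log2 fold change in edgeR fell to 0.11 (adjusted p = 0.760).

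Below 31.6 Mb no class passed in edgeR: 0 were called lower, against 0% of all classes tested, with 0 at an unadjusted p under 0.05 and 0 by DESeq2. Of all 22 classes, 13.6% were lower at an unadjusted p under 0.05 in edgeR and 13.6% by DESeq2, all of them under 1 Mb. Log2 fold changes of these 6 classes in edgeR ran from -0.07 to -0.01, with adjusted p from 0.430 to 0.837. They ran from -0.34 to -0.29 with classes under 1 kb included. When only the 10 classes at 1 Mb or more were fitted and scaled to their own total, edgeR called the same 4 classes higher and the other 6 lower, with log2 fold changes from -0.19 to -0.14 in the 6. Whether the shorter classes were called thus depended on which classes were fitted and what they were scaled to. Their values show the difference in size. The class from 1 to 1.78 Mb held 18.1% and 17.7% of the cis pairs at 1 Mb or more for serum, against 15.2% and 16.4% for 2i. As a share of cis pairs from 1 kb upwards it held 6.10% and 5.70% with serum, compared with 5.66% and 5.73% with 2i, where the groups overlap.

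Over these cis pairs at 1 kb or more, 4 of the 10 classes had both 2i libraries above both serum libraries and 2 had both below, against 18.2% higher and 40.9% lower of all 22 classes. The 2 lower classes were 10 to 17.8 Mb and 17.8 to 31.6 Mb. The first held 4.52% and 4.34% in libraries from serum, and 4.32% and 4.15% in those from 2i. The second held 5.59% and 5.49% for serum against 5.48% and 5.18% for 2i. In both, the lower serum library and the higher 2i library were nearly level.

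The classes in between varied little between conditions by this measure. From 1.78 to 3.16 Mb the shares were 4.36% and 4.10% with serum, compared with 4.16% and 4.12% with 2i. From 3.16 to 5.62 Mb they were 3.65% and 3.46% for serum against 3.53% and 3.41% for 2i. From 5.62 to 10 Mb they were 3.66% and 3.45% with serum, compared with 3.60% and 3.45% with 2i. The groups overlapped in all 3 classes, with serum replicate 1 the highest library in each.

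Counts per class depend on how many pairs of positions lie at that separation, so they were divided by the number of such pairs over the mm9 chromosomes, in Mb². The class from 56.2 to 100 Mb holds 26.3% of all position pairs at 1 Mb or more, the class from 1 to 1.78 Mb holds 1.12% and the last class holds 0.107%. Of the pairs of starts of protein-coding genes at 1 Mb or more, 24.5% lie between 56.2 and 100 Mb apart, 1.79% between 1 and 1.78 Mb and 0.0241% in the last class.

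Density, given as pairs per Mb² per 1000000 cis pairs at 1 Mb or more, was 88.8 and 86.4 in libraries from serum, and 74.4 and 80.4 in those from 2i in the class from 1 to 1.78 Mb. It was 7.30 and 7.31 for serum against 6.31 and 6.46 for 2i from 10 to 17.8 Mb. Both 2i libraries were the lower ones in these classes. From 56.2 to 100 Mb it was 0.844 and 0.894 with serum, compared with 2.18 and 1.88 with 2i. In the last class it was 0.0911 and 0.111 for serum against 0.417 and 0.270 for 2i. Density thus fell from each class to the next in every library, and the 2i libraries began below the serum libraries and ended above them. In each class this density is the share of cis pairs at 1 Mb or more, divided by a constant. Its order of libraries is therefore that of the shares, where a gain in some classes lowers others. Over cis pairs at 1 kb or more, the groups overlapped from 1 to 1.78 Mb.

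The local slope, the change of log10 density per unit of log10 separation between neighbouring classes, shows where the profiles part. Of the 9 steps beyond 1 Mb, both 2i libraries were shallower (less negative) than both serum libraries in 4 and steeper in 1, against 28.6% and 28.6% of all 21 steps from 1 kb upwards. In every library the slope was shallowest between the classes from 10 to 17.8 and from 17.8 to 31.6 Mb, at -0.464 and -0.426 in libraries from serum, and -0.418 and -0.449 in those from 2i. The groups overlapped at this step.

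The next step, into the class from 31.6 to 56.2 Mb, had slopes of -1.17 and -1.15 with serum, compared with -0.567 and -0.671 with 2i. From there into the class from 56.2 to 100 Mb the slopes were -2.22 and -2.17 in replicates 1 and 2 of serum, against -0.908 and -1.08 in those of 2i. This was the step with the largest difference between conditions, 1.20, against a gap of 0.175 that separated the 2i replicates (exact permutation test, p = 0.333). Into the class from 100 to 178 Mb the slopes were -2.33 and -2.17 for serum against -1.46 and -1.71 for 2i. At the final step they were -2.60 and -2.45 with serum, compared with -2.24 and -2.64 with 2i, where the groups overlapped again and counting error alone reached 0.0998 (SE).

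The remaining steps differed less. The 4th step with shallower 2i libraries, from 3.16 to 5.62 Mb into 5.62 to 10 Mb, had slopes of -0.947 and -0.955 for serum against -0.914 and -0.933 for 2i. The single step that was steeper in both 2i libraries led from 5.62 to 10 Mb into 10 to 17.8 Mb, at -0.546 and -0.513 for serum against -0.597 and -0.588 for 2i. In the first step beyond 1 Mb, the slopes of -1.57 and -1.56 for serum and of -1.52 and -1.56 for 2i overlapped. In the next, from 1.78 to 3.16 Mb into 3.16 to 5.62 Mb, so did -1.28 and -1.27 for serum and -1.26 and -1.30 for 2i.

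A single slope fitted over the 4 classes from 1 to 10 Mb was -1.27 and -1.26 in libraries from serum, and -1.23 and -1.27 in those from 2i. The difference of means, 0.0128, was smaller than the gap of 0.0342 that separated the 2i replicates (exact permutation test, p = 1). Without 2i replicate 1 its sign changed, to -0.00430. Fitted over the 6 filled classes beyond 10 Mb, the slope was -1.73 and -1.66 in replicates 1 and 2 of serum, against -0.9996 and -1.17 in those of 2i. The means were -1.70 ± 0.0511 (SD, n = 2) for serum and -1.09 ± 0.122 (SD, n = 2) for 2i, and the difference of 0.612 was larger than the spread in either condition (exact permutation test, p = 0.333). By the fitted slopes, the conditions thus differed up to 10 Mb by less than the 2i replicates did, and beyond 10 Mb both 2i libraries were shallower.

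The mean log10 separation of the cis pairs at 1 Mb or more sums up the whole range without a threshold between classes. It was 6.91 and 6.93 in replicates 1 and 2 of serum, against 7.04 and 7.00 in those of 2i, with separation in bp. As geometric means these are 8.20, 8.46, 10.9 and 10.0 Mb. The difference of 0.0996 on the log10 scale, a ratio of 1.26, was more than the gap of 0.0378 that separated the 2i replicates (exact permutation test, p = 0.333). 2i replicate 1 had both the longest mean separation and the highest share of trans pairs, whose part in the result was not tested.

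Cis density was then set against trans density, the number of trans pairs per Mb² of position pairs on different chromosomes. For this ratio both densities were pairs per Mb² without scaling to depth. Trans density therefore also depends on the depth of a library. It was 5.15 and 14.2 in libraries from serum, and 24.9 and 9.77 in those from 2i. Over all cis pairs at 1 Mb or more, cis density was 34.0 and 31.3 times trans density in replicates 1 and 2 of serum, against 18.8 and 32.6 times in those of 2i. The groups overlapped, and the log2 difference of -0.40 rested on 2i replicate 1 (exact permutation test, p = 0.667). Without that library it was 3.97e-06.

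By class, the ratio of cis to trans density was higher in both 2i libraries in 3 of the 10 classes and lower in both in 6, against 13.6% higher and 63.6% lower of the 22 classes from 1 kb upwards. In the class from 1 to 1.78 Mb it was 549 and 492 with serum, compared with 255 and 477 with 2i. From 17.8 to 31.6 Mb it was 34.6 and 32.6 for serum against 17.0 and 29.6 for 2i. In both classes 2i replicate 2 lay much nearer to the serum libraries than 2i replicate 1 did, and in the class from 31.6 to 56.2 Mb the groups overlapped, at 17.8 and 16.9 for serum against 12.3 and 20.2 for 2i.

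The 3 classes beyond 56.2 Mb had the opposite order. From 56.2 to 100 Mb the ratio was 5.21 and 5.09 in replicates 1 and 2 of serum, against 7.44 and 11.1 in those of 2i. From 100 to 178 Mb it was 1.69 and 1.78 for serum against 3.66 and 4.86 for 2i. Of the 2i libraries, the one with the lower share of trans pairs had the higher ratio, and each exceeded both serum libraries. Trans density is the divisor of this ratio. By share of cis pairs at 1 Mb or more, the order of the 2i libraries was the reverse.

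In the last class, cis density was below trans density in serum, at 0.563 and 0.632 times, and above it in 2i, at 1.43 and 1.60 times. On the log2 scale this was -0.74 ± 0.12 (SD, n = 2) for serum and 0.60 ± 0.12 (SD, n = 2) for 2i, a difference of 1.34 against gaps of 0.17 between replicates in each condition (exact permutation test, p = 0.333). Per position pair, opposite ends of the longest chromosomes thus held fewer read pairs than different chromosomes in serum, and more in 2i. The counts are not balanced for coverage, and the level of the ratio in each condition was not tested against equality. Runs of unsequenced bases at chromosome ends bear on this level, since 67.5% of the position pairs in the last class lie on sequenced bases, compared with 95.7% from 1 to 1.78 Mb. Counted over sequenced bases only, the log2 ratio was -0.37 and -0.20 in libraries from serum, and 0.97 and 1.14 in those from 2i, so it kept its sign in each library.

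Read strand was a check on the pairs, since ligation at long range should have no preferred orientation. In the 9 filled classes up to 178 Mb, each strand combination took between 24.9% and 25.1% of the pairs in each library. In the last class the range was 23.1% to 26.7%, with 566 pairs in the smallest library. Wilson 95% intervals on the share of inward-facing pairs covered 25% in 35 of 40 combinations of library and class. Each interval that missed lay below 25%, including those of serum replicate 2 and both 2i libraries from 1.78 to 3.16 Mb. For class shares the widest of these intervals extends 0.0134 percentage points from the share, and all of them cover counting error only.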

How the data were processed

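The authors mapped Hi-C read pairs to mm9 (also the build in the submitters' processing notes) with distiller, removed pairs with identical coordinates, and deposited raw counts of read pairs per distance class, chromosome pair and library. According to the methods, pairs under a mapping quality limit were set aside. Whether this also holds for the counts in the table is not given in the sources used here, nor is the distiller version. Columns that sum the libraries of a condition were used only as a check. Counts are not balanced for coverage.

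Distance classes and named loci were chosen with earlier results of these data known. All filled classes are named, and the loci are En2, Shh and Mnx1. Bmi1 and Skida1, also on the list of loci, were not analysed here. The design named the open last class for 1 comparison. As no chromosome reaches it, the 178 to 316 Mb class was used. Position pairs came from NCBIM37 chromosome lengths and gene starts from its GENCODE annotation. Each class was placed at the mean log10 separation of its position pairs, and slopes were least squares fits. Conditions were compared by the exact permutation test over 6 assignments and by edgeR 4.0.16 with 1 dispersion for all classes and no scaling beyond the cis pairs at 1 kb or more, with DESeq2 1.42.0 as an alternative (R 4.3.3). Shares, slopes and intervals used Python 3.11.15 and scipy 1.17.1. Classes under 1 kb were left out of the main test because they hold unligated fragments. Depth was 123275426 to 435928775 unique pairs. The edgeR and slope steps were tested on simulated data, for edgeR with a smaller dispersion than these data gave. Alternatives were other scalings, denominators, class positions, sequenced bases, trans pairs, the replicate block and each library left out.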

Additional observations from a re-analysis of the deposited data

How the results depend on the processing

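Of 44 recalculations of the mean separation, the slopes and the cis over trans densities, 10 equal the value reported by construction. Of the other 34, 32 kept their direction, as did all 60 of the class shares. Of 90 recalculated fold changes of single classes, 62 kept both direction and side of the threshold, and 14 of 18 counts of classes stayed within 1.5 times the count reported. With the permutation test none can pass a threshold. The exceptions among the 34 values came without 2i replicate 1. There the slope difference from 1 to 10 Mb became -0.00430 and the log2 cis over trans difference beyond 1 Mb became 3.97e-06. Leaving out single libraries gave ranges of -0.00430 to 0.0299 and -0.79 to 3.97e-06 for these.

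Beyond 1 Mb, the count of classes higher in 2i was 3 with TMM factors, 4 with DESeq2 and 3 over the 35 classes with at least 10 counts in every library, where 7 were higher in all. It ran from 0 to 4 with single libraries left out, and without 2i replicate 1 it was 4, with 7 higher among all 22 classes. With 1 library left out, the lone library of a condition is assumed to vary like the 2 of the other. It was 0 without serum replicate 1 and 0 without serum replicate 2 (3 at an unadjusted p under 0.05 in each). The 31.6 to 56.2 Mb class, at adjusted p = 0.0379 in edgeR, had 0.0537 with TMM and 0.760 over the 35 classes, with log2 fold changes of 0.39, 0.41 and 0.11 in this order. Over the edgeR alternatives and DESeq2 its adjusted p ran from 6.48e-06 to 0.760, the lowest with DESeq2. The count of lower classes was 6 when only the 10 classes at 1 Mb or more were fitted, with 4 still higher. That fit changed both the classes and the scaling, and the cause was not tested. It was 0 to 0 with single libraries left out.

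With a replicate block, edgeR called 0 classes higher and 0 lower. At an unadjusted p under 0.05, 3 were higher and 1 lower beyond 1 Mb, and 6 higher and 4 lower among all 22. Deviations of same-numbered libraries correlated at 0.164 over the 22 classes and at -0.990 over the 10 beyond 1 Mb, and the labels give no more than a number, so the numbers were not taken to pair libraries. In this design a block cannot change a plain difference of means, while the fold changes that edgeR fitted moved slightly.

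Log2 fold changes near 0 changed sign for 3 classes that did not pass in edgeR: 0.0107 from 1.78 to 3.16 Mb and 0.00622 from 3.16 to 5.62 Mb with DESeq2, and 0.0287 with DESeq2 and 0.00123 with TMM from 5.62 to 10 Mb. With single libraries left out they ran from -0.0736 to 0.0127, -0.0743 to 0.00441 and -0.0549 to 0.0301. The cause was not tested. Cis minus trans density has no logarithm in the last class, where it is negative in serum.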
